A study of Homo sapiens with 3 samples.

Results

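Cytosolic ribosomal proteins are the protein parts of the ribosomes that translate nuclear mRNA, and their genes were followed here in T47D, a human breast cancer cell line. Members were genes with a probe set of their own whose symbol is RPL or RPS with a number and an optional final A or X, or RPSA, RPLP0, RPLP1 or RPLP2. This gave 52 genes on 111 probe sets, of 19775 genes in all, with 20 genes of the small and 32 of the large subunit. The current human gene records hold 77 protein-coding genes with such a symbol, and the other 25 are not analysed here. Of these, 15 stood only on probe sets that list several genes.

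All cells first spent 4 h in medium with 10% charcoal-stripped serum, which is low in steroids, and were then treated for 3 h. One culture received 0.1% ethanol as vehicle, another 1 µM estradiol, the natural estrogen, and the last 1 µM ERα17p, a peptide taken from the sequence of estrogen receptor α. The labels give an ethanol share for the vehicle cells alone, and no other time point was analysed here. Each group was 1 Affymetrix HG-U133 Plus 2 array, so there is no replicate spread behind any difference and no test was made.

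Each value is an RMA value, taken as log2, relative to a baseline for each probe set that the labels do not describe. A value of 0 is therefore that baseline, not absence, and levels cannot be ranked between genes. For the same reason the markers of T47D could not be checked as present or absent. Where a gene had several probe sets its value is their mean, and the SD given with it is over those n probe sets on the same arrays. In bulk RNA, fewer cells of a type and less RNA per cell cannot be told apart.

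A ribosome has a small subunit, which reads the mRNA, and a large subunit, which joins amino acids, and cells make the proteins of both in matched amounts. Most of their mRNAs start with a C followed by a run of pyrimidines, the 5′ terminal oligopyrimidine (TOP) motif, through which mTORC1 and the RNA-binding protein LARP1 set how well they are translated. Growth signals, among them estrogen in breast cancer cells, are known to raise ribosome production. Ribosomal protein genes also have many processed pseudogenes, so that array probes often match more than 1 sequence.

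The start sites show the motif that this family shares. RefSeq promoters (GRCh38.p14) were matched for 46 of the 52 genes, and 36 of them have C as the first transcribed base (78.3%), against 11.4% of 22198 protein-coding promoters. A first C that opens a run of at least 5 pyrimidines was found in 33 of 46, or 71.7%, against 4.54%. The genes below are shown because they have large differences in the results, or, for RPS6, as the substrate of S6 kinases. They include genes with a long run from a first base C, with a short one and with another first base. Each line gives 12 bases before and 18 bases from the start on the gene's strand, and capitals mark the pyrimidine run that begins at a first base C.
RPLP2 (chr11:809955-809984, plus strand): cgtcggcgccttCCTTTTCCTCCCTgtcgc
RPS23 (chr5:82278337-82278366, minus strand): tgcggtgcttctCTCTTTCgctcaggcccg
RPL36A (chrX:101390999-101391028, plus strand): gcctcgcggtttCTTTCTTTCCgcgccgat
RPL18 (chr19:48619161-48619190, minus strand): ccagcccgttctCTCTTTCCggacctggcc
RPL37A (chr2:216498832-216498861, plus strand): ccgcgtctcttcCTTTCTgggctcggacct
RPS6 (chr9:19380219-19380248, minus strand): cggaagttggccCTCTTTTCCgtggcgcct
RPL3 (chr22:39319606-39319635, minus strand): aggccgaccggcCTCTaccggcgggatttg
RPS15 (chr19:1438384-1438413, plus strand): gcaggcgcggacCaaagcgatctcttctga
RPS28 (chr19:8321484-8321513, plus strand): ccgaagcacgtgactcctctccgccagacc
RPL11 (chr1:23691767-23691796, plus strand): ctcctggcccataaggccctcggccggaag

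The run is 13 bases long in RPLP2, 10 in RPL36A, 9 in RPS6, 7 in RPS23, 4 in RPL3 and 1 in RPS15. At the annotated starts of RPS28 and RPL11 the first base is not C, which says only that these letters are not at this position. In RPS28 a run of pyrimidines directly follows the first base, and it is not marked or counted. Motifs were searched on both strands in the window from 250 bases before the start to 50 after it. CACGTG, an E-box that MYC can bind, was found in 2 of 46 (4.35%), against 8.34% of protein-coding promoters. CCGGAAG, the core that ETS factors bind, was found in 17 of 46 (37%), against 12.8%. TATAAA was found in 3 of 46 (6.52%), against 9.47%. These matches describe sequence and do not show binding.

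The vehicle array was the odd one of the 3. Its values had an SD of 0.434 over the probe sets, against 0.158 for estradiol and 0.166 for ERα17p. The 3 control probe sets of 18S ribosomal RNA differed from the vehicle by 1.87 ± 0.34 (SD) with estradiol and by 1.76 ± 0.39 with ERα17p. The difference between the 3′ and 5′ control probe sets, which are placed on arrays to follow RNA quality, was 0.52 for ACTB with vehicle. It was −0.29 with estradiol and −0.17 with ERα17p. For GAPDH it was 0.39, −0.098 and 0.0071. These controls move with both comparisons to the vehicle, and their part in the results below was not tested. Both comparisons also share the single vehicle array, so their values are given side by side.

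Ribosomal protein genes were slightly lower after estradiol than with vehicle, and few moved far. The median difference over the 52 genes was −0.11, against −0.0043 over all genes, and 37 lay below 0, where 50.6% of all genes did. RPS23 was the 1 member of 52 at least 1.5-fold higher, beside 6.48% of all genes, and 0 were at least 1.5-fold lower, beside 8.42%. In all, 14.9% of genes passed 1.5-fold in either direction. At a smaller limit, a log2 difference of 0.32, 1 member was higher and 6 were lower, beside 16.4% and 19.8%. The differences ran from −0.46 to 0.78 with an SD over members of 0.22, while the SD over all genes was 0.43. Within the smaller limit lay 45 of 52 members (86.5%) and 63.7% of all genes.

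After ERα17p the family had a similar position. The median difference from the vehicle was −0.12, against 0.0011 over all genes, and 40 of 52 lay below 0, beside 49.9% of all genes. RPS23 was the 1 member at least 1.5-fold higher, beside 6.88%, and RPL36A the 1 at least 1.5-fold lower, beside 8.76%, with 15.6% of all genes past it in either direction. Past the smaller limit, 1 was higher and 7 were lower, beside 16.6% and 19.2%. The differences ran from −0.62 to 0.63, with an SD over members of 0.20 against 0.44 over all genes. The vehicle value was the highest of the 3 arrays for 34 members and the lowest for 9, whereas over all genes these shares were 40.8% and 40.4%.

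**Figure D1:**
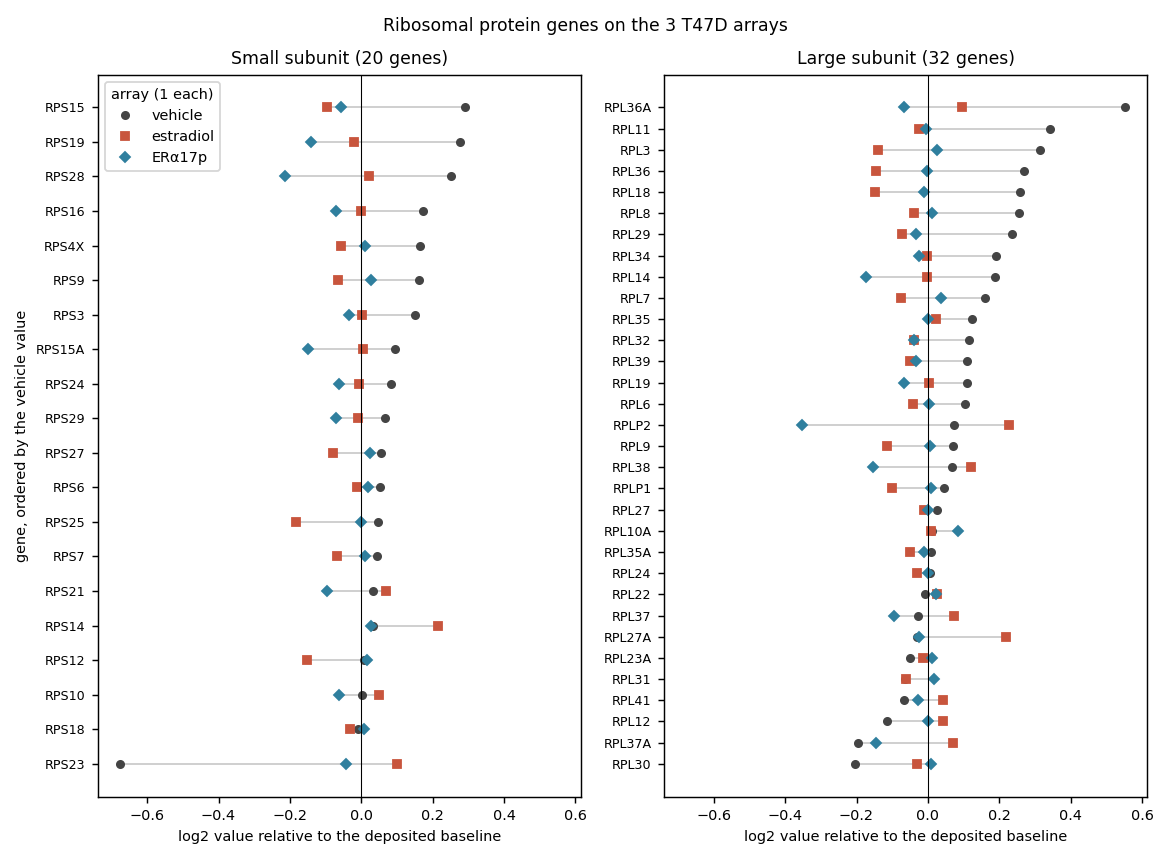
Value of each ribosomal protein gene (mean over its probe sets, log2 relative to the deposited baseline) on the vehicle, estradiol and ERα17p arrays, 1 array each, for 20 small subunit and 32 large subunit genes. RPS23 lies far to the left on the vehicle array at −0.68, RPL36A far to the right at 0.55, and RPLP2 has the widest gap between the treated arrays.

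**Figure D2:**
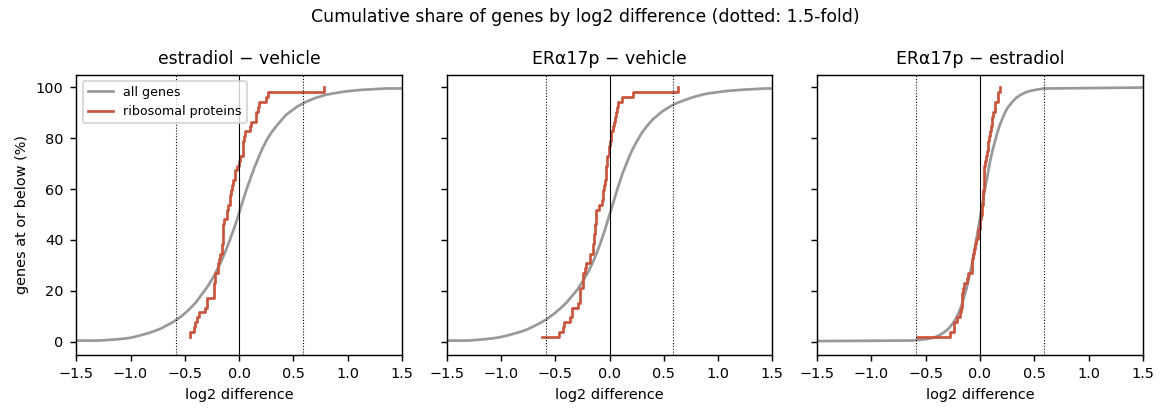
Cumulative share of genes (%) by log2 difference for the 52 ribosomal protein genes and for all 19775 genes, with dotted lines at 1.5-fold. In both comparisons with the vehicle the ribosomal protein curve is steeper than that of all genes and crosses its middle to the left, at −0.11 and −0.12.

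Both subunits had medians below 0 in the comparisons with the vehicle. Small subunit genes had a median of −0.12 with estradiol and −0.13 with ERα17p relative to the vehicle, and 16 and 17 of 20 lay below 0. Large subunit genes had medians of −0.10 and −0.11, and 21 and 23 of 32 lay below 0. The SD over members was 0.24 and 0.22 in the small and 0.20 and 0.18 in the large subunit. Without RPS23 the SD over the family was 0.18 with estradiol and 0.17 with ERα17p.

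In the small subunit, RPS23 sits at the decoding centre, where codon and anticodon are matched. The gene lies at chromosome 5, 82273320-82278354 (GRCh38.p14). Its value was −0.68 on the vehicle array, 0.10 with estradiol and −0.043 with ERα17p. Vehicle alone was low, and the differences from it were 0.78 ± 1.05 (SD, n = 2) and 0.63 ± 0.90. The SD exceeded the mean because the probe sets disagreed. The probe set listed with a RefSeq mRNA accession read −0.015, 0.019 and −0.019 for vehicle, estradiol and ERα17p. Its differences from the vehicle were 0.034 and −0.0038. The other, without such an accession, read −1.34, 0.18 and −0.068, with differences of 1.52 and 1.27. The files do not say which part of the transcripts either one reads.

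RPS28 and RPS15 touch the path of the mRNA through the small subunit. RPS28 was 0.25 on the vehicle array, 0.023 with estradiol and −0.21 with ERα17p, so the vehicle was highest and ERα17p lowest, with differences of −0.23 ± 0.19 (SD, n = 3) and −0.46 ± 0.30 from the vehicle. RPS15 was 0.29, −0.095 and −0.058 in the same order of arrays, so that the vehicle was high and the treated arrays were close together. Its differences were −0.39 ± 0.14 (SD, n = 2) and −0.35 ± 0.16. RPS3, at the mRNA entry, was 0.15, 0.0023 and −0.034 on 1 probe set, again with the vehicle highest.

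RPS19 was the first gene found mutated in Diamond-Blackfan anaemia, a failure of red cell production. It was 0.28 on the vehicle array, −0.019 with estradiol and −0.14 with ERα17p. The vehicle was again high, with differences of −0.30 ± 0.086 (SD, n = 3) and −0.42 ± 0.28. Of 19 listed genes mutated in this disease 14 were measured, and 12 of them lay below 0 with estradiol and 13 with ERα17p. These counts lie beside 71.2% and 76.9% of the whole family and 50.6% and 49.9% of all genes. The medians of the 14 were −0.095 and −0.13. Of the 14, 0 passed 1.5-fold in either direction in either comparison, beside 14.9% and 15.6% of all genes.

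RPS6 is the protein that S6 kinases phosphorylate below mTORC1. Its values were 0.053 on the vehicle array, −0.012 with estradiol and 0.019 with ERα17p, close to the baseline throughout. Its differences from the vehicle were −0.065 ± 0.17 (SD, n = 4) and −0.034 ± 0.18, smaller than the spread of its probe sets. RPS14, whose loss underlies the anaemia of the 5q deletion syndrome, was 0.032, 0.21 and 0.028, so the estradiol array was high. Its difference for estradiol was 0.18 ± 0.54 (SD, n = 4), within the spread of its probe sets, which ran from −0.36 to 0.84. RPS18 was −0.0083, −0.031 and 0.0083 on 1 probe set and hardly moved.

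In the large subunit, RPL36A had the most negative difference in both comparisons with the vehicle, level with RPL3 for estradiol. It was 0.55 on the vehicle array, 0.096 with estradiol and −0.068 with ERα17p, and the difference for ERα17p amounts to a 1.54-fold lower value. The differences were −0.46 and −0.62, on 1 probe set for which no RefSeq mRNA accession is listed. RPL3, at the peptidyl transferase centre where peptide bonds form, was 0.32, −0.14 and 0.026, also on 1 probe set. Its vehicle value was high and its differences were −0.46 and −0.29.

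RPL11 forms a particle with RPL5 and 5S ribosomal RNA, and free RPL11 can bind MDM2, the regulator of p53. It was 0.34 on the vehicle array, −0.025 with estradiol and −0.0050 with ERα17p, so that the treated arrays nearly coincided. The differences were −0.37 and −0.35 on 1 probe set. RPL5 is not analysed here.

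Other large subunit genes also had a high vehicle and treated values near the baseline. RPL36 was 0.27 on the vehicle array, −0.14 with estradiol and −0.0030 with ERα17p. RPL18 was 0.26, −0.15 and −0.012. RPL29, whose product was also found as a heparin-binding protein, was 0.24, −0.074 and −0.034. In each of these 3 the vehicle was the highest array and estradiol the lowest. Their differences from the vehicle were −0.41 ± 0.39 (SD, n = 2) and −0.27 ± 0.42 for RPL36, −0.41 ± 0.22 (SD, n = 3) and −0.27 ± 0.27 for RPL18 and −0.31 ± 0.027 (SD, n = 2) and −0.27 ± 0.061 for RPL29. Only for RPL29 among these 3 did both differences exceed the spread of its probe sets by more than 4 times. RPL8, whose product lies close to the peptidyl transferase centre, was 0.26, −0.040 and 0.012 on 1 probe set. RPL7 was 0.16, −0.074 and 0.037. Its differences from the vehicle, −0.23 ± 0.36 (SD, n = 3) and −0.12 ± 0.22, were smaller than the spread of its probe sets. RPL14 was 0.19, −0.0029 and −0.17, with ERα17p lowest and differences of −0.19 ± 0.15 (SD, n = 3) and −0.36 ± 0.28.

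The stalk proteins recruit the elongation factors, and their values went different ways. RPLP1 was 0.046 on the vehicle array, −0.099 with estradiol and 0.0076 with ERα17p, with estradiol lowest. RPLP2 (chromosome 11, 809967-812876) was 0.073, 0.23 and −0.35, with ERα17p alone low. Its difference from the vehicle was −0.43 ± 0.66 (SD, n = 2) for ERα17p, and the probe sets differed by more than that. One probe set read 0.28, 0.36 and −0.61, and the other −0.13, 0.096 and −0.092. RPL12, at the base of the same stalk, was −0.12, 0.043 and 0.00, with a low vehicle and differences of 0.16 ± 0.0026 (SD, n = 2) and 0.12 ± 0.018 that its probe sets shared.

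Around the polypeptide exit tunnel, 5 of 8 listed genes were measured, with medians of −0.10 with estradiol and −0.12 with ERα17p. RPL39, part of the tunnel wall, differed from the vehicle by −0.16 and −0.14, and RPL19 by −0.11 and −0.18. RPL31 and RPL23A, at the tunnel's rim, were −0.064, −0.060 and 0.017 and −0.050, −0.013 and 0.012 for vehicle, estradiol and ERα17p. RPL23A lay above the vehicle by 0.037 and 0.062 on 1 probe set. RPL31 differed from the vehicle by 0.0037 ± 0.31 (SD, n = 3) and 0.081 ± 0.085, both within the spread of its probe sets. RPL10A, which forms the mobile L1 stalk, was 0.012, 0.0094 and 0.083.

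With estradiol, 15 of 52 members lay above the vehicle, among them RPS23, RPS14, RPLP2 and RPL12. RPL37A was −0.20 on the vehicle array, 0.069 with estradiol and −0.14 with ERα17p, and RPL27A was −0.030, 0.22 and −0.025. In both, the estradiol array was high and ERα17p lay close to the vehicle. Their differences for estradiol were 0.27 ± 0.29 (SD, n = 3) and 0.25, the latter on 1 probe set. RPL30 was −0.20, −0.029 and 0.0087, with a low vehicle. RPL41, the smallest ribosomal protein, was −0.068, 0.042 and −0.028, and RPL37 was −0.029, 0.074 and −0.095. RPL22 was −0.0068, 0.025 and 0.021, with differences from the vehicle of 0.032 ± 0.26 (SD, n = 5) and 0.028 ± 0.20 that lay well inside the spread of its probe sets.

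**Figure D3:**
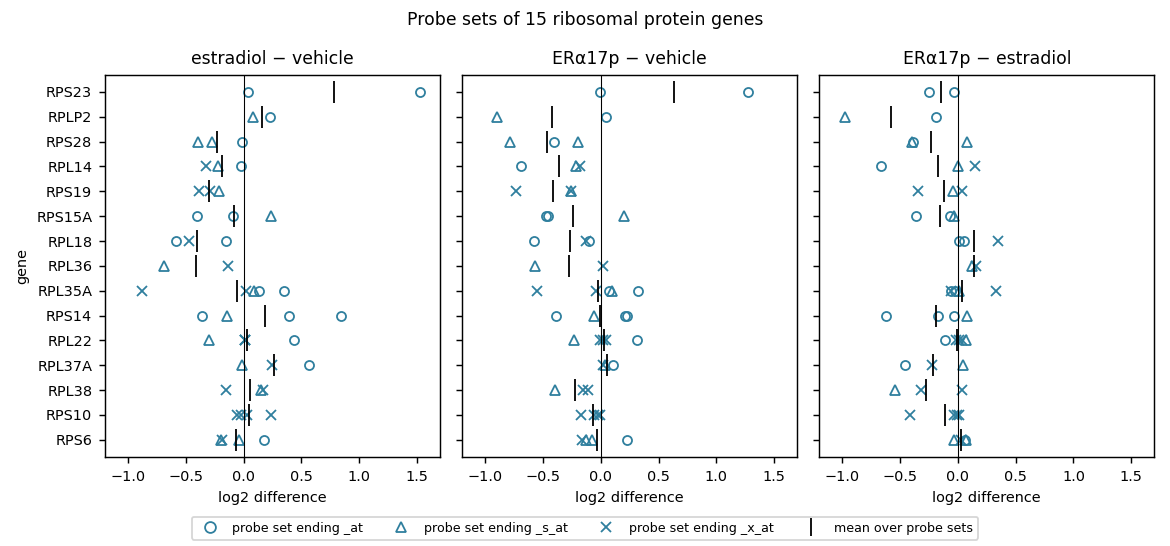
Log2 differences of the individual probe sets (symbols by identifier ending) and their mean (bar) for 15 ribosomal protein genes in the 3 comparisons. RPS23 has one probe set near 0 and another at 1.52 and 1.27 above the vehicle, and RPLP2 has one at −0.90 with ERα17p and another at 0.043.

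Members with several probe sets allow a check of sign. Of 33 such genes, all probe sets were below the vehicle for 14 with estradiol and 13 with ERα17p, and all were above it for 4 and 4. Over the 10523 genes of the array with several probe sets, 21.8% and 22% had all below, and 22.4% and 23.4% all above. The median SD over a gene's probe sets was 0.16 with estradiol and 0.18 with ERα17p in the family, against 0.29 and 0.28 over all such genes. Among the 111 probe sets, 35 had an identifier ending in _x_at and 36 in _s_at, endings that mark probes able to match several sequences or transcripts. The share ending in _x_at was 31.5%, against 7.296% of all probe sets of 1 gene. Both probe sets of RPL29 and both of RPL12 have this ending, so the agreement given above for them may not be independent. Over the 30 members with a probe set of neither ending, the median from the vehicle was −0.051 with estradiol and −0.14 with ERα17p.

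Between ERα17p and estradiol, a comparison that does not use the vehicle array, the family's differences were small. The median was 0.015, against 0.0062 over all genes, and 24 of 52 members lay below 0, beside 48.4%. Past 1.5-fold were 0 members in either direction, beside 0.521% of genes higher, 0.607% lower and 1.13% either way. The SD over members was 0.14, against 0.20 over all genes. RPLP2 was lowest at −0.58 ± 0.56 (SD, n = 2), just inside the 1.5-fold limit of 0.585, and it was the 1 member past the smaller limit, beside 4.67% of genes higher and 4.01% lower by that much.

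After RPLP2, the members lowest with ERα17p relative to estradiol were RPL38 at −0.28 ± 0.29 (SD, n = 3), RPL27A at −0.24, RPS28 at −0.24 ± 0.27 (SD, n = 3), RPL37A at −0.21 ± 0.25 (SD, n = 3) and RPS14 at −0.19 ± 0.31 (SD, n = 4). In each of these with several probe sets the SD was larger than the difference. RPL38, which affects the translation of particular developmental mRNAs in mice, was 0.068 on the vehicle array, 0.12 with estradiol and −0.15 with ERα17p. RPS25, needed for initiation on several viral mRNAs, was 0.046, −0.18 and −0.0022, so estradiol was low and ERα17p was higher than it by 0.18. RPS12 was 0.0072, −0.15 and 0.016 and RPL9 0.070, −0.11 and 0.0058, with estradiol low in both. ERα17p stood above estradiol by 0.17 for RPL3 and 0.12 for RPL9, which like RPS25 rest on 1 probe set each. It stood above by 0.17 ± 0.23 (SD, n = 2) for RPS12 and 0.14 ± 0.18 (SD, n = 3) for RPL18. In these the SD was again larger than the difference. For RPL36 it stood above by 0.14 ± 0.0225 (SD, n = 2).

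The size of these differences went with how a probe set was listed. The platform annotation gives 36 of the 111 probe sets a RefSeq mRNA accession. Over these, ERα17p minus estradiol ran from −0.070 to 0.15 with an SD of 0.051. Over the other 75 it ran from −0.97 to 0.34 with an SD of 0.24, and 3 were at least 1.5-fold lower, beside 1.19% of all probe sets so listed. Over all probe sets of the array with such an accession the SD was 0.23, and over all without it 0.24. From the vehicle, the RefSeq-listed members' probe sets had medians of −0.098 with estradiol and −0.070 with ERα17p. Below 0 lay 26 and 23 of the 36, beside 52.5% and 50.5% of all RefSeq-listed probe sets. At least 1.5-fold lower were 2 of the 36 with estradiol and 0 with ERα17p, beside 13% and 13% of all RefSeq-listed probe sets. Several members named above had another sign on their RefSeq-listed probe set alone. ERα17p minus estradiol was then 0.036 for RPL38, 0.045 for RPL37A and 0.032 for RPS19. Estradiol minus vehicle was −0.011 for RPL37A, −0.15 for RPL38 and 0.017 for RPL7. RPS15A stood at −0.087 and −0.24 from the vehicle over its 3 probe sets and at 0.23 and 0.20 on the RefSeq-listed one. This split was made after the values were seen.

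**Figure D4:**
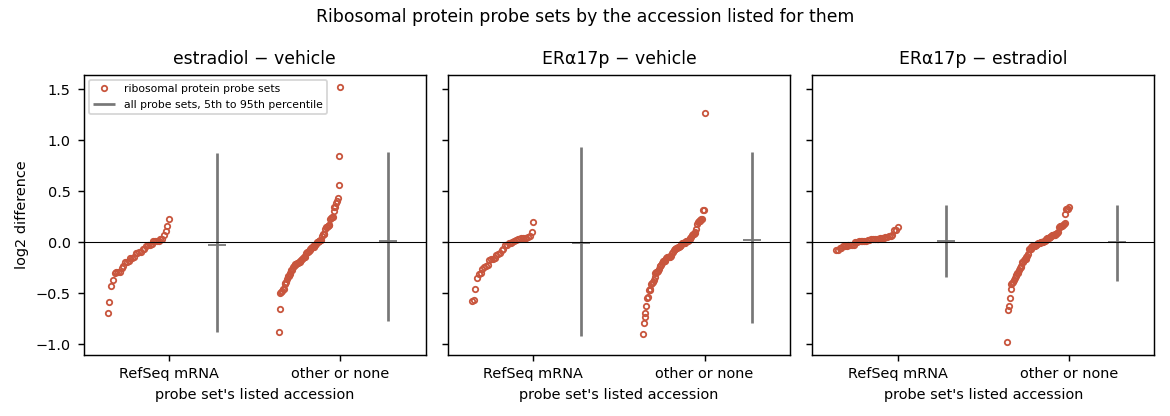
Log2 differences of the 111 ribosomal protein probe sets (circles, sorted) by whether the platform annotation lists a RefSeq mRNA accession, with the 5th to 95th percentile (line) and median (tick) of all probe sets of 1 gene in that class. In ERα17p minus estradiol the 36 RefSeq-listed probe sets lie between −0.070 and 0.15, while the others spread from −0.97 to 0.34.

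Within the family, 33 genes had a first base C that opens a pyrimidine run of at least 5 bases. Their median differences from the vehicle were −0.088 with estradiol and −0.065 with ERα17p. The other 13, with a shorter run from a first base C or with another first base, had −0.15 and −0.15. Runs that begin after another first base, as in RPS28, were not counted in this split. The ranges overlapped, at −0.46 to 0.78 and −0.46 to −0.0028 for estradiol.

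Other translation genes were set beside the family. Of 20 further TOP mRNAs 16 were measured, with medians of −0.040 with estradiol and 0.062 with ERα17p. Below 0 lay 9 and 7 of them, beside 50.6% and 49.9% of all genes. EEF1A1 and EEF2, the elongation factors that deliver tRNA and move the ribosome, differed from the vehicle by −0.25 ± 0.34 (SD, n = 6) and −0.13 ± 0.21 and by −0.23 ± 0.11 (SD, n = 2) and −0.12 ± 0.085. TPT1 stood at 0.032 ± 0.071 (SD, n = 5) and 0.12 ± 0.090. HNRNPA1, which binds RNA, was the 1 gene of this list at least 1.5-fold lower in each comparison, at −0.68 ± 0.25 (SD, n = 3) and −0.88 ± 0.090. EIF4A2 passed 1.5-fold upward with ERα17p, at 0.72. FAU, which encodes ribosomal protein S30 fused to a ubiquitin-like protein, was 0.24 on the vehicle array, −0.0024 with estradiol and −0.061 with ERα17p.

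The 75 mitochondrial ribosomal protein genes had medians of −0.14 with estradiol and −0.18 with ERα17p, and their SDs of 0.41 and 0.44 were near those of all genes. Of them, 5 were at least 1.5-fold higher and 8 lower with estradiol, and 5 and 7 with ERα17p. Their shares higher and lower lie beside 6.48% and 8.42% of all genes with estradiol and 6.88% and 8.76% with ERα17p, which also apply to the counts of the other translation lists. The 8 paralogs of ribosomal proteins outside the rule had medians of −0.036 and 0.0016. Among them RPL7L1 differed by 0.36 and 0.42, and RPL10L, a testis paralog of RPL10, by −0.53 and −0.059.

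Translation initiation factors, of which 26 of 28 were measured, had medians of −0.058 with estradiol and −0.024 with ERα17p, and 4 and 5 were at least 1.5-fold lower, with 1 higher in each. The eIF3 subunit genes EIF3G and EIF3B stood at −0.93 and −0.87 and at −0.79 and −0.997. EIF6, which keeps free large subunits apart from small ones, stood at −0.86 and −0.93. EIF4G1 stood at 0.59 ± 1.28 (SD, n = 2) and 0.60 ± 1.05, below the spread of its probe sets. The ribosomal protein chaperones had medians of 0.096 and 0.14 over 10 genes, and 2 were at least 1.5-fold lower in each comparison. These were GRWD1, a chaperone of RPL3, at −0.67 and −0.77, and TSR2, the chaperone of RPS26, at −0.70 and −0.66.

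The list for mTORC1 and its control of TOP mRNAs had medians of −0.33 with estradiol and −0.30 with ERα17p over 17 genes. It mixes activators and inhibitors of the complex, so its median gives no direction of mTORC1 activity. At least 1.5-fold lower were 7 and 8 of the 17, with 0 higher, beside 8.42% and 8.76% of all genes lower. In each comparison 11 of the 17 lay below 0, beside 50.6% and 49.9% of all genes. Chosen after their values were seen, RHEB, which activates the complex, stood at 0.46 ± 0.47 (SD, n = 9) and 0.48 ± 0.51, LARP4 at 0.42 ± 0.48 (SD, n = 5) and 0.40 ± 0.40 and EIF4EBP2 at 0.26 ± 0.37 (SD, n = 5) and 0.27 ± 0.42, all above the vehicle. The stress-induced inhibitors SESN2 and DDIT4 stood at −2.37 and −2.18 with estradiol and at −2.32 and −1.44 with ERα17p. MLST8, a subunit of the complex, stood at −1.09 and −1.12, and EIF4EBP1, which holds back cap-dependent translation, at −0.90 and −1.197. LARP1 was 0.48 on the vehicle array, −0.12 with estradiol and −0.18 with ERα17p, with differences of −0.60 ± 0.55 (SD, n = 4) and −0.65 ± 0.60. MTOR differed by −0.035 ± 0.45 (SD, n = 2) and 0.26 ± 0.86. Between ERα17p and estradiol this list had a median of −0.018, and DDIT4 was at least 1.5-fold higher with ERα17p, at 0.74.

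**Figure D5:**
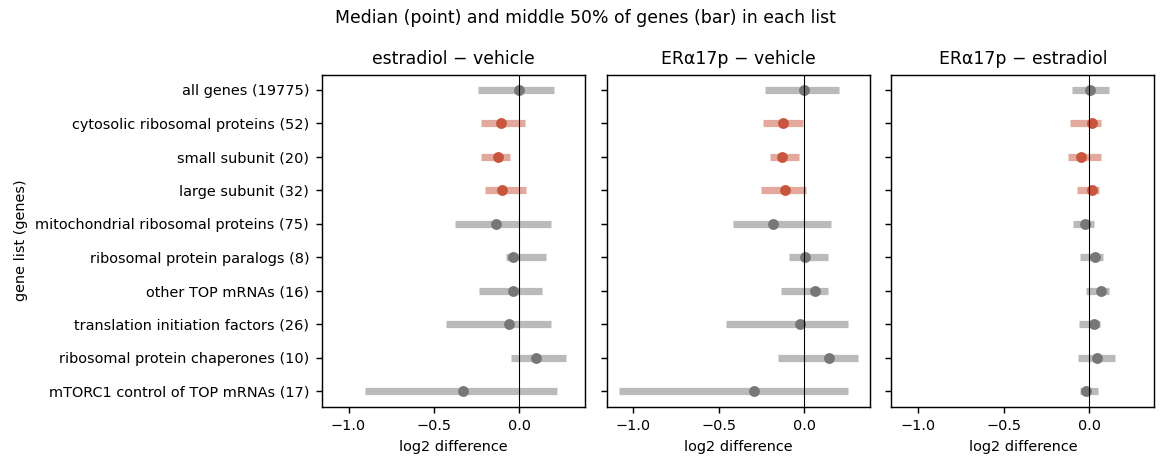
Median (point) and middle 50% of genes (bar) of the log2 difference for the ribosomal proteins, their subunits, other translation gene lists and all genes, in the 3 comparisons, with the number of genes in brackets. The ribosomal protein points lie at −0.11 and −0.12 in the comparisons with the vehicle and the mTORC1 points at −0.33 and −0.30.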

How the data were processed

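Biotin-labelled RNA of T47D cells was measured on 1 array per group, per the labels. The deposited log2 values were made by the authors with RMA, per the submitters' processing notes. Log base, centring and RMA version are not stated, and the differences assume log2 and 1 baseline per probe set for all arrays. Of 54675 probe sets, 62 of them controls, 41091 list exactly 1 gene. A gene's value was the mean of its probe sets, and differences were described by size, at 1.5-fold. The number of arrays limits the precision. The members and lists were chosen with earlier results of these data known. By rule, all 3 array values are given for the 10 most positive and 10 most negative members per comparison with the vehicle, the 6 each way between treatments and members of set roles. Up to 4 genes of each other list, from those with the largest differences, were to be named, with a few set ones. RHEB, LARP4, EIF4EBP2, EIF4G1 and the pseudogenes and S6 kinase genes of the last section are named outside this rule. RPLP0, RPL5, RPSA, RPS27A, RPL13A and RACK1 are not analysed here. All 52 members matched a current gene record. The computations were run on simulated data with planted shifts much larger than the family's differences, which checks the calculation alone. Alternatives covered the fold, the probe sets used, centring and the median, and 3 were added after seeing the data. Python 3.11.15, numpy 2.4.6, pandas 2.3.3 and matplotlib 3.10.9 were used.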

Additional observations from a re-analysis of the deposited data

How the results depend on the processing

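With 1 array per group no replicate could be left out, and signal over background is unknown. No paired analysis was possible because each group has 1 array. The family's medians from the vehicle stayed below 0 under every alternative run. For estradiol the median was −0.051 without _x_at and _s_at probe sets. For ERα17p it was −0.075 over probe sets in place of genes, −0.064 with probe sets that list several genes added and −0.070 over RefSeq-listed probe sets, the last 2 chosen after seeing the data, as was leaving out RPS23. The median of ERα17p minus estradiol lay near 0 and had no stable sign. It was −0.026 as a mean, 0.0096 with each gene's probe sets summarised by their median, −0.065 without _x_at and _s_at, −0.021 without _x_at, 0.0083 after centring, 0.0078 over probe sets and 0.0074 with several-gene probe sets. Shares in brackets are those of all genes, or of all probe sets, past the same limit under the same setting. Members past 1.5-fold from the vehicle with estradiol numbered 1 of 52 (14.9%), and 0 of 52 at 2-fold (3.2%). They numbered 7 of 52 at the smaller limit (36.3%), 2 of 30 without _x_at and _s_at (13.9%) and 3 of 45 without _x_at (15.3%). Over probe sets there were 6 of 111 (20.4%), and 7 of 175 with several-gene probe sets (20.3%). Over RefSeq-listed probe sets there were 2 of 36 (23.4%), and without RPS23 0 of 51. With ERα17p there were 2 of 52 at 1.5-fold (15.6%), 0 of 52 at 2-fold (3.77%) and 8 of 52 at the smaller limit (35.8%). Over probe sets there were 6 of 111 (20.6%), and 11 of 175 with several-gene probe sets (20.6%). Over RefSeq-listed probe sets there were 0 of 36 (24.1%), and without RPS23 1 of 51. Between the treatments there were 1 of 52 at the smaller limit (8.67%), 1 of 30 without _x_at and _s_at (1.39%) and 1 of 52 after centring (1.18%). Over probe sets there were 3 of 111 (2.03%), and 4 of 175 with several-gene probe sets (2.03%). Over RefSeq-listed probe sets alone, 20 of 108 differences of single members changed sign. Among them ERα17p minus vehicle became −0.0038 for RPS23 and 0.20 for RPS15A, and ERα17p minus estradiol became 0.036 for RPL38 and 0.045 for RPL37A. Without _x_at and _s_at, 13 of 90 changed sign.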

Other observations

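Ribosomal protein pseudogenes and the ribosomal S6 kinase genes were also read from the arrays. Over 9 annotated ribosomal protein pseudogenes, the median difference from the vehicle was −0.44 with estradiol and −0.15 with ERα17p. RPL7AP9 was 0.086 on the vehicle array, −0.78 with estradiol and 0.25 with ERα17p, RPL7AP10 was −0.015, −0.58 and 0.15, and RPL23AP32 was 0.11, −0.39 and 0.16. These 3 are named because their ERα17p minus estradiol was the highest of the 9, at 1.03, 0.73 and 0.55, with the estradiol array alone low. Over the 9 the median of that difference was 0.021, and 4 lay below 0. At least 1.5-fold higher were 2, beside 0.521% of all genes. RPS16P5 was 0.61, 0.018 and −0.13, with a high vehicle. Each of these named pseudogenes rests on 1 probe set, and pseudogenes are close copies of the coding genes, so the transcript that such a probe set reads is uncertain.

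The ribosomal S6 kinase genes did not share a direction, and RPS6KB1 and RPS6KB2 among them also belong to the mTORC1 list above. RPS6KB2 stood at −0.92 and −1.09 from the vehicle with estradiol and ERα17p, and RPS6KA1 at −1.25 and −0.94, each on 1 probe set. RPS6KB1 stood at 0.28 ± 0.59 (SD, n = 3) and 0.43 ± 0.37. The median over 10 such genes was 0.024 with estradiol and −0.033 with ERα17p. The 64 probe sets that list a ribosomal protein gene together with other genes had medians of −0.095 and −0.058. Of these, 43 lay below 0 in each comparison, beside 48.9% and 48.2% of all probe sets of 1 gene.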
